A study of Mus musculus with 6 samples.

Results

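Small nucleolar RNAs (snoRNAs) and the transcripts that carry them were followed across an array study of mouse BV-2 microglia exposed to bacterial lipopolysaccharide (LPS). A row of the value table, called a transcript cluster, belonged here if it had exactly 1 annotated symbol and that symbol began with Snord, Snora, Scarna or Snhg or was Gas5, Zfas1 or Epb41l4aos. This took 102 of 41345 rows, with 95 symbols: 47 C/D box snoRNA rows (Snord), 28 H/ACA box snoRNA rows (Snora), 6 rows of small Cajal body RNAs (Scarna) and 21 host rows (Snhg, Zfas1 and Epb41l4aos). Gas5 had no row of its own, since its row was shared with a microRNA.

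BV-2 is an established line of mouse brain microglia, immortalised with viral oncogenes, which limits it as a model of resting microglia. The 3 control arrays carried RNA of BV-2 cells without LPS, and the 3 LPS arrays RNA of BV-2 cells given LPS O111:B4 at 1 µg/mL for 24 h. Both groups shared the line and a plating medium with 2.5% serum, and the labels give no collection time for the controls. Whether replicates are separate cultures is not stated, and p-values therefore reflect only array-to-array spread, possibly technical. Of 10 microglia and macrophage markers all 10 lay above the background level defined below, with Cd68 at a mean log2 value of 10.80, although Aif1 (3.97) and C1qa (3.71) were close to it. Of 15 astrocyte, neuron and oligodendrocyte markers measured, only the neuronal Rbfox3 (3.46) lay above it. Among the LPS response genes, Acod1 was higher by 6.60 on the log2 scale (limma adjusted p = 0.0012).

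C/D box snoRNAs guide the addition of methyl groups to ribosomal RNA, and H/ACA box snoRNAs guide the conversion of uridine to pseudouridine. Small Cajal body RNAs do the same for the spliceosomal RNAs. In mammals most of them are cut out of introns, some of genes for ribosomal proteins and translation factors, others of noncoding host genes whose spliced exons are often short-lived. A probe inside a snoRNA also matches the unspliced host precursor, so the mature RNA and its precursor cannot be told apart on these arrays. In RNA of whole cultures, fewer cells with an RNA and less of that RNA per cell cannot be told apart either.

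Most members were well measured. Background was set at the 95th percentile of the row means of 1443 olfactory, vomeronasal and taste receptor rows, a log2 value of 3.08, and 94 of 102 members lay above it. The 8 below were the C/D snoRNAs Snord85 and Snord123, the H/ACA snoRNA Snora35, which lies in the serotonin receptor gene Htr2c, and the host rows of Snhg9, Snhg14, Snhg18 and both rows of Snhg11. Row means ran from 1.86 to 10.43 for C/D snoRNAs, from 2.07 to 10.84 for H/ACA snoRNAs, from 5.22 to 7.63 for Cajal body RNAs and from 1.74 to 8.94 for hosts. Levels of different rows come from different probes and are not set against each other.

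LPS replicate 3 stood furthest from its group in its small RNAs, and values without it are given where they move most. Control replicate 1 was also high in C/D rows, to a smaller degree. The median of the 47 C/D rows was 8.04, 7.23 and 7.47 on the log2 scale in control replicates 1 to 3, and 7.10, 7.37 and 8.55 in LPS replicates 1 to 3. C/D snoRNAs were thus at their highest and at their lowest in arrays of the same LPS group, with the controls between. LPS replicate 3 held the highest of the 6 values in 38 of 47 C/D rows and 20 of 28 H/ACA rows, against 21.6% of all rows and 31.9% of the rows above background. Among hosts it did so in 5 of 21 rows. Relative to the mean of LPS replicates 1 and 2, the third LPS array had a median excess of 1.15 log2 units for C/D rows (2.22-fold), 0.61 for H/ACA rows (1.52-fold), 0.51 for Cajal body rows and 0.06 for host rows. The same median was 0.02 over all rows and 0.14 over rows above background. Control replicate 1 was the highest control in 35 of 47 C/D rows and 13 of 28 H/ACA rows. It was so in 14959 of 41345 rows, and in 6814 of the 19060 above background. Its median excess over the other controls was 0.58 for C/D, 0.26 for H/ACA, 0.63 for Cajal body and 0.29 for host rows. That excess was 0.06 over all rows and 0.14 over rows above background.

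**Figure D1:**
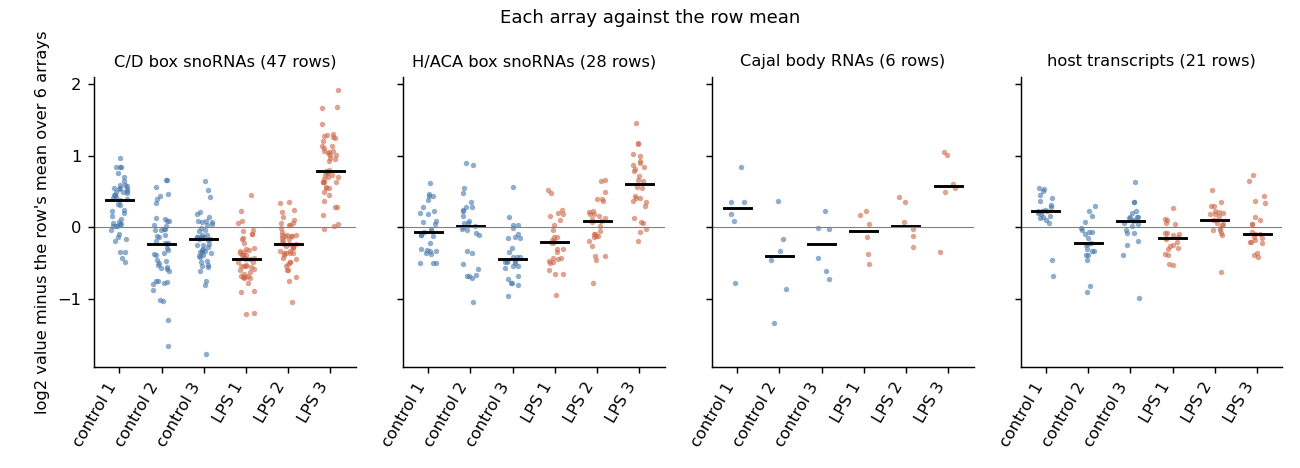
Log2 value of each row minus the mean of that row over 6 arrays, for C/D snoRNAs (47 rows), H/ACA snoRNAs (28), Cajal body RNAs (6) and hosts (21). Each point is a row, bars are medians, controls are blue and LPS arrays orange. In LPS replicate 3 nearly the whole C/D cloud lies above 0, which the host rows do not show.

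This excess was broad but uneven. It was over 1 log2 unit in 29 of 47 C/D rows and 7 of 28 H/ACA rows, against 4.75% of all rows and 8.58% of rows above background. Its largest size, named after the values were seen, was that of Snord111, which lies in the splicing factor gene Sf3b3, with 7.02, 6.44 and 5.79 in the controls and 5.33, 6.22 and 8.45 after LPS. Snord118 (the U8 RNA, which takes part in processing of the large-subunit rRNA) had 6.27, 5.79 and 6.15 in the controls and 5.71, 5.90 and 7.70 after LPS. Here LPS replicates 1 and 2 lay inside or just below the control range and LPS replicate 3 alone lay far above it. Snora73a and Snora73b went the other way, with LPS replicate 3 lower than the other LPS replicates by 0.51 and 0.65, and Scarna2, a guide for the U2 spliceosomal RNA, did so by 0.64. The median SD of 3 LPS arrays was 0.67 for C/D rows, against 0.46 in the controls. It was 0.44 in both groups for H/ACA rows, 0.38 against 0.52 in the controls for Cajal body rows, and 0.29 against 0.28 for host rows. Over all rows above background it was 0.28 in the LPS arrays and 0.32 in the controls.

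No member passed the test of LPS against control. The limma fit over all 41345 rows gave 0 of 102 members at a Benjamini-Hochberg adjusted p under 0.05, where 0.193% of all rows were higher and 0% lower (0.404% higher and 0% lower of the rows above background). The lowest adjusted p of any member was 0.50. At an unadjusted p under 0.05, 6 members were higher (1 C/D, 4 H/ACA and 1 host row) and 0 lower, where 4.98% of all rows were higher and 1.4% lower, or 9.29% and 1.71% of the rows above background. The 6 are 5.88% of the members, a share near the first background and below the second. After quantile normalization, which gives all arrays the same distribution, 2 members were higher (1.96%) and 3 lower (2.94%) at that level. Of all rows, 3.66% were higher and 3.12% lower there. Fold changes above 0 were then found in 43 members, in place of 70. The 3 lower members, a share near that of all rows, were all host rows (14.3% of 21). The median SE of a log2 fold change was 0.43 for C/D rows and 0.31 for H/ACA rows, larger than the median size of the fold changes themselves (0.14 and 0.23).

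Class medians were small and moved with single arrays. The median log2 fold change of the 47 C/D rows was 0.10, with 35 above 0 (74.5%). It was 0.03 over all rows and 0.11 over rows above background, with 55.8% and 64.2% above 0. The C/D median was thus near that of other measured rows, and the host median given below was under it. Without LPS replicate 3 the C/D median was -0.25, with 37 of 47 rows below 0, and without control replicate 2 it was 0.02. Over rows above background these medians were 0.06 and 0.02. The 28 H/ACA rows had a median of 0.23, with 23 above 0, or -0.02 without LPS replicate 3 and 0.30 without control replicate 2. For the 6 Cajal body rows it was 0.31, with all 6 above 0, and 0.22 without LPS replicate 3 or 0.09 without control replicate 2. The 21 host rows had a median of -0.05, with 15 below 0, -0.06 without LPS replicate 3 and -0.21 without control replicate 2. Other arrays moved the medians upward. Without LPS replicate 1 they were 0.35 for C/D, 0.48 for H/ACA and 0.52 for Cajal body rows, and without control replicate 1 they were 0.30, 0.38 and 0.56, with the host median at 0.03 and 12 of 21 host rows above 0. Quantile normalization moved the C/D median to -0.04, the H/ACA median to 0.06 and the host median to -0.22, where the median of all rows was -0.02. No direction is therefore given for the C/D class.

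**Figure D2:**
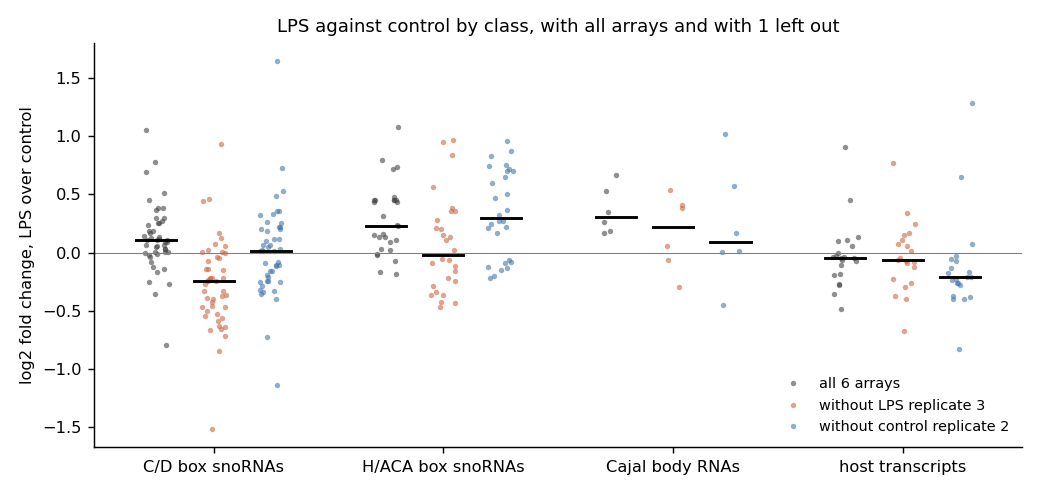
Log2 fold change of LPS over control for each row, by class, from all 6 arrays (grey), without LPS replicate 3 (orange) and without control replicate 2 (blue). Points are rows and bars are medians. The C/D median goes from 0.10 with all arrays to -0.25 without LPS replicate 3, while the host median stays between -0.21 and -0.05.

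Without LPS replicate 3, both remaining LPS values lay below all controls in 9 of 47 C/D rows, where 9.72% of all rows and 9.83% of rows above background did so. Both lay above all controls in 1 C/D row and 4 H/ACA rows, against 13.6% of all rows and 17.8% of those above background. A further fit also left out control replicate 2, the lowest control in 21 of 47 C/D rows, so that both omissions move those rows the same way by construction. In it 12 of 47 C/D rows were lower and 2 higher at an unadjusted p under 0.05 (5.73% and 5.47% of all rows), and 1 passed at an adjusted p under 0.05. This was Snord83b, from an intron of the ribosomal protein gene Rpl3, with a log2 fold change of -1.86 (limma adjusted p = 0.025) in that fit and -0.80 (SE 0.63, adjusted p = 0.98) with all arrays. Its values were 7.83, 6.70 and 7.63 in the controls and 5.79, 5.96 and 8.02 after LPS. LPS replicates 1 and 2 were thus the lowest arrays and LPS replicate 3 the highest. Snord43, which lies in the same host gene, had 8.04, 6.74 and 7.70 in the controls and 7.39, 7.51 and 7.50 after LPS, without an excess in LPS replicate 3.

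The other C/D snoRNAs with the lowest p among those with a negative fold change included Snord17, Snord69 and Snord53, with log2 fold changes from -0.36 to -0.14. Snord17, which lies in the sorting nexin gene Snx5, had 9.10, 9.60 and 9.22 in the controls and 8.55, 8.62 and 9.67 after LPS. Its LPS replicates 1 and 2 lay below every control and LPS replicate 3 above every control. Snord35a lies in Rpl13a, whose intronic snoRNAs are known from work on oxidative stress in cells loaded with fatty acids. It had 9.48, 8.27 and 9.14 in the controls and 8.35, 8.78 and 10.32 after LPS (log2 fold change 0.19, SE 0.55, adjusted p = 1.00), or -0.40 without LPS replicate 3. The other snoRNAs of Rpl13a, Snord32a, Snord33 and Snord34, shared their rows with the host and are not reported.

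On the positive side of the C/D class stood Snord90, Snord89, Snord13, Snord22 and Snord61. Snord90, from an intron of Rc3h2, a gene for an RNA-binding ubiquitin ligase, was the only C/D snoRNA of 47 whose groups did not overlap (2.13%, where all LPS values lay above the controls in 7.74% of all rows and 12.1% of rows above background). Its values were 3.43, 3.40 and 3.26 in the controls and 3.68, 3.97 and 3.98 after LPS, a log2 fold change of 0.52 (SE 0.15, unadjusted p = 0.011, limma adjusted p = 0.50) at a level near background. Snord13 (the U13 RNA, which guides an acetylation of small-subunit rRNA and is transcribed from its own gene) had 7.10, 8.23 and 5.81 in the controls and 8.03, 7.92 and 8.35 after LPS (log2 fold change 1.05, SE 0.56). The low value was that of control replicate 3, and control replicate 2 lay within the LPS range. Snord89 had 7.97, 7.35 and 7.05 and then 7.82, 7.99 and 8.91 (log2 fold change 0.78, or 0.45 without LPS replicate 3). Snord61, within the splicing regulator gene Rbmx, went from a mean of 6.28 ± 0.66 to 6.97 ± 1.16 (SD, n = 3), with a log2 fold change of 0.69 that was 0.03 without LPS replicate 3. The C/D rows with the highest means, Snord22, Snord16a and Snord99, had log2 fold changes of 0.39, 0.10 and 0.27. Without LPS replicate 3 these were 0.17, -0.25 and 0.0051.

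Among H/ACA snoRNAs, all LPS values lay above all controls in 4 of 28 rows (14.3%). This was so in 7.74% of all rows, 12.1% of rows above background and 14.5% of protein-coding rows above background, so the share is near that of other measured rows. These 4, Snora44, Snora73a, Snora73b and Snora74a, also had the lowest p of the class, and each lies within a noncoding host gene of the Snhg family. Snora16a and Snora61 of Snhg12 and Snora78 of Snhg9 also lie in such genes, and their groups overlapped. Snora44, of Snhg12, had 6.99, 6.05 and 6.60 in the controls and 7.20, 7.57 and 8.11 after LPS, a log2 fold change of 1.08 or 2.11-fold (SE 0.32, unadjusted p = 0.012, limma adjusted p = 0.50). It was the largest fold change of any member, and was 0.84 without LPS replicate 3 and 0.83 without control replicate 2.

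Snora73a and Snora73b are the copies of the U17 RNA, which takes part in processing of the small-subunit rRNA, and both lie in Snhg3. Snora73a had 7.59, 7.84 and 7.11 in the controls and 8.39, 8.57 and 7.97 after LPS, or 0.80 higher by group mean (SE 0.25, limma adjusted p = 0.55). Snora73b had 8.32, 8.20 and 7.96 in the controls and 9.05, 9.18 and 8.46 after LPS, or 0.74 higher by group mean (SE 0.22, limma adjusted p = 0.53). Here LPS replicates 1 and 2 were the highest arrays and LPS replicate 3 the lowest of its group, so that the fold changes were 0.97 and 0.95 without it. As near-identical copies, these RNAs may share probe signal and are not independent of each other. Snora74a (U19), of Snhg4, had 5.79, 6.25 and 5.75 in the controls and 6.33, 6.66 and 6.94 after LPS, or 0.72 higher by group mean (SE 0.22, limma adjusted p = 0.55). Its lowest LPS value exceeded its highest control value by a narrow margin. Over the alternatives run, fold changes of these 4 rows lay between 0.49 and 1.30, and their adjusted p between 0.14 and 1.00. Since all LPS values of these rows lay above all controls, leaving out or weighting arrays could not turn their sign. The constant sign in those fits is therefore no sign of stability.

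Other H/ACA snoRNAs overlapped between groups. Snora21, which lies in the ribosomal protein gene Rpl23, had 9.46, 8.84 and 9.28 in the controls and 9.62, 9.33 and 9.99 after LPS (log2 fold change 0.45, SE 0.24). The row with the highest mean log2 value in the class, Snora33 in Rps12, had 10.82, 10.73 and 10.99 and then 10.40, 10.71 and 11.40 (log2 fold change -0.01), while another row of Snora33 gave 0.45, or 0.14 without LPS replicate 3. Snora34, of Kansl2, had a log2 fold change of 0.23, or -0.16 without LPS replicate 3. Of the few with a negative fold change above background, Snora47, Snora78 and Snora41 had -0.17, -0.07 and -0.02. Control replicate 2 was the lowest control in 50.6% of all rows and 59.7% of rows above background, and the highest in 25.4% and 23.3%. It was the lowest in 21 of 47 C/D rows (44.7%) and in 8 of 28 H/ACA rows (28.6%), and the highest in 10 C/D rows (21.3%) and 12 H/ACA rows (42.9%). Snora31, in an intron of Tpt1 and named after its values were seen, had 7.89 in control replicate 2 and 6.68 and 6.02 in the other controls. Snora23, named in the same way, had 10.26 there and 9.01 and 8.85 in the others.

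Of the Cajal body RNAs, Scarna6 had 7.52, 7.26 and 6.71 in the controls and 7.65, 7.50 and 7.92 after LPS (log2 fold change 0.53, SE 0.24, adjusted p = 0.83). Scarna8 had 4.45, 5.59 and 4.62 and then 5.27, 5.58 and 5.82 (log2 fold change 0.67, SE 0.32, adjusted p = 0.86). In both, a single control reached into the LPS range. Scarna10 (U85) had a log2 fold change of 0.26, the rows of Scarna17 0.35 and 0.19, and Scarna2 0.17. Without LPS replicate 3 the first was 0.05 and the Scarna17 rows turned to -0.07 and -0.30, and without control replicate 2 Scarna2 turned to -0.45. Scarna2 varied most among the controls, with 8.48, 6.30 and 7.86, and had 7.80, 8.06 and 7.29 after LPS.

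The noncoding hosts had a smaller spread between arrays, and most had fold changes close to 0 on the deposited scale. Snhg1 had 7.87, 7.12 and 7.60 in the controls and 7.41, 7.86 and 7.14 after LPS (log2 fold change -0.06, SE 0.26). Snhg3 had 6.47, 6.25 and 6.55 and then 6.25, 6.43 and 6.45 (-0.05, SE 0.15), the narrowest range of the named hosts. Snhg6 and Epb41l4aos had log2 fold changes of 0.05 and -0.01. Snhg12, Snhg7, Snhg5, Snhg4 and Snhg15 stood at -0.27, -0.27, -0.19, -0.19 and -0.11, with every adjusted p at 0.98 or above. After quantile normalization 18 of 21 host rows lay below 0, and Snhg12, Snhg7, Snhg5 and Snhg4 stood at -0.45, -0.47, -0.39 and -0.37. Both Zfas1 rows gave small positive values, 0.11 and 0.13, which were -0.08 and -0.05 after quantile normalization, but they disagreed on LPS replicate 3, which was the lowest LPS array in the first (6.76) and the highest in the second (8.56).

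Snhg17 was measured by 3 rows that disagreed. The row with the lowest p of all hosts had 6.03, 7.00 and 5.72 in the controls and 6.81, 7.23 and 7.44 after LPS, a log2 fold change of 0.91 (SE 0.35, unadjusted p = 0.038, limma adjusted p = 0.72). Another had 0.45 and the remaining row -0.03. In the first 2 rows control replicate 2 was the highest control and LPS replicate 3 the highest LPS array. Snhg11, on a row below background, was the only member whose LPS values all lay below its controls (2.34, 2.53 and 2.49 against 3.16, 2.71 and 2.55), where 3.48% of all rows and 2.26% of those above background did so.

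Transcripts of many host genes begin at a run of pyrimidines, a feature of messages whose translation follows growth signals. The RefSeq promoter table (GRCm38.p6) gave start sites of 14 of the 17 host symbols, after host windows on a single chromosome were left out. The count is therefore not that of all hosts the table holds. Snhg4, Snhg6 and Epb41l4aos are the host symbols without a window here. For every host named by the rule whose start was kept, the 30 bases around the annotated start are shown. They are 15 before it and 15 from it, read 5′ to 3′ on the strand of the gene. Capitals mark runs of 5 or more C or T.
Snhg1 (chr19:8723472-8723501, plus strand): gttgTTCTTgtcggcctcaTTTTTCCTTgt
Snhg3 (chr4:132353672-132353701, minus strand): tagtcgaccacgcctgaCTTCCgggcgtta
Snhg5 (chr9:88522883-88522912, minus strand): gagctgcggtgaaccgggctcgTTCTTTTa
Snhg7 (chr2:26640230-26640259, minus strand): gtggagatgctcggCCTCTCggcagccatg
Snhg12 (chr4:132308663-132308692, plus strand): ggccgTTCTCagTCCTTTCTCgcttcatcc
Snhg15 (chr11:6528746-6528775, minus strand): cgctgctgtgaccgtaactttaagcacacg
Snhg17, start 1 (chr2:158361495-158361524, minus strand): tcgtgaagaccacagTTTCCTgtcgcgtgg
Snhg17, start 2 (chr2:158361508-158361537, minus strand): ccgccagcgcccatcgtgaagaccacagtt
Zfas1 (chr2:167062919-167062948, plus strand): ttgactgcgccccgggcggccgcaggtctc
Such a run on the gene's strand was present in 9 of the 15 host windows kept. It was present in 47.3% of all 32851 windows of the table. These still include the chromosome left out for hosts, so the host count is not read as higher or lower. In Snhg7 and Snhg12 a run spans the annotated start, and in start 1 of Snhg17 it begins there. In Snhg3, Snhg1 and Snhg5 a run lies further on, while Snhg15, Zfas1 and the other start of Snhg17 have none. This is a description of the sequence, and annotated starts may differ from those used in these cells.

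Set beside the gene that spans each of them, small RNAs and hosts behaved differently from array to array. RefSeq gene positions gave a spanning gene for 74 of 81 small RNA rows, and 62 of these had a host row with 1 symbol, from 46 host genes. The 2 rows of Snora19 hold the same 6 values and count here as 2 rows and 2 pairs. Pairs with a host below background (Htr2c, Snhg18 and Snhg9) were kept in the counts. Of their small RNAs, Snora35 and Snord123 also lay below it. In 58 of 62 pairs the excess of LPS replicate 3 over the other LPS replicates was larger in the small RNA than in its host, with medians of 0.92 and -0.24. For the 14 pairs with ribosomal protein hosts the medians were 1.00 and -0.45, and 10 of these 11 hosts were lower in LPS replicate 3. Snord49a, Snord49b and Snord65, which share a noncoding host (2410006H16Rik), were higher there by 1.15, 1.70 and 1.27 while the host was lower by 1.16. Snord11 and Snord70, in the gene for the snoRNP protein Nop58, were higher by 1.87 and 1.58, with -0.07 for Nop58. Pairs that share a host are not independent of each other.

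**Figure D3:**
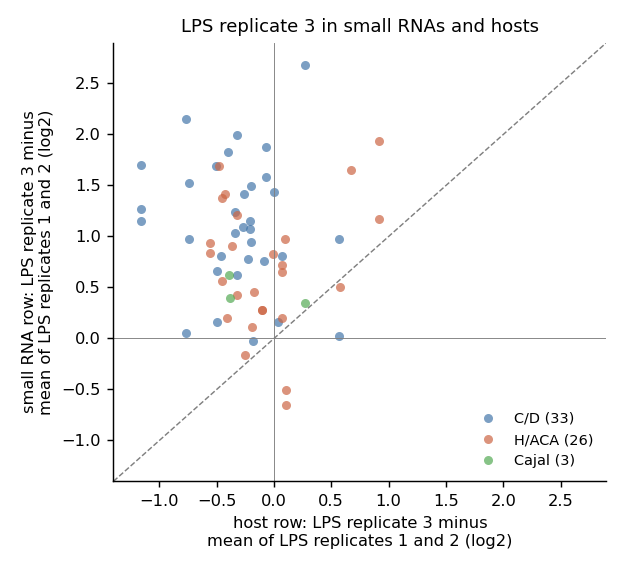
Difference between LPS replicate 3 and the mean of LPS replicates 1 and 2, on the log2 scale, in the small RNA row (vertical) and in the row of the gene that spans it (horizontal), for 62 pairs. The dashed line marks equal differences. In 58 pairs the point lies above the line.

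Across treatment, the median log2 fold change was 0.13 for the small RNAs of these pairs and -0.01 for their hosts, and 32 of 62 pairs had the same sign. The small RNA had the larger fold change in 43 of 62 pairs, but in 19 of 62 without LPS replicate 3, so that the balance turned with that array. The 15 pairs with noncoding hosts came from 9 hosts, with 4 pairs from Snhg12 and 3 from 2410006H16Rik. Among them the fold change of the small RNA was larger in 12, with a median difference of 0.49, or in 10 and 0.30 without that array. For 47 pairs with protein-coding hosts it was larger in 31, with a median difference of 0.11, or in 9 and -0.29 without it. Leaving out arrays was added for these pairs after seeing the data. All 4 small RNAs of Snhg12 had positive log2 fold changes, 1.08 for Snora44, 0.45 for Snora61, 0.43 for Snora16a and 0.27 for Snord99, beside -0.27 for the host. Without LPS replicate 3 these were 0.84, 0.39, 0.22 and 0.0051, and without control replicate 2 Snord99 was at -0.09. Snhg12 itself had 5.80, 5.34 and 5.46 in the controls and 4.89, 5.59 and 5.31 after LPS. The difference of small RNA and host within an array did not overlap between groups in 3 pairs. It was higher after LPS by 1.35 for Snora44 and Snhg12 and by 0.78 for Snora73b and Snhg3, and -0.67 for Snora47 and Zbed3 (each p = 0.10, two-sided exact permutation test, unadjusted, n = 3 per group). In the last of these pairs the log2 fold changes were -0.17 for Snora47 and 0.50 for Zbed3. The p of 0.10 is the smallest this design can give, and it was tested in 62 pairs. With no change at all, a share of 0.10 of pairs would be due to reach it. The 3 of 62 pairs are below that share and are not read as changes. Without LPS replicate 3 the differences in the 3 pairs were 1.13, 1.04 and -0.70, where non-overlap of the groups fixed the sign beforehand. The corresponding differences were 0.85 for Snora73a (exact permutation p = 0.20) and 0.90 for Snora74a and Snhg4 (exact permutation p = 0.20).

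**Figure D4:**
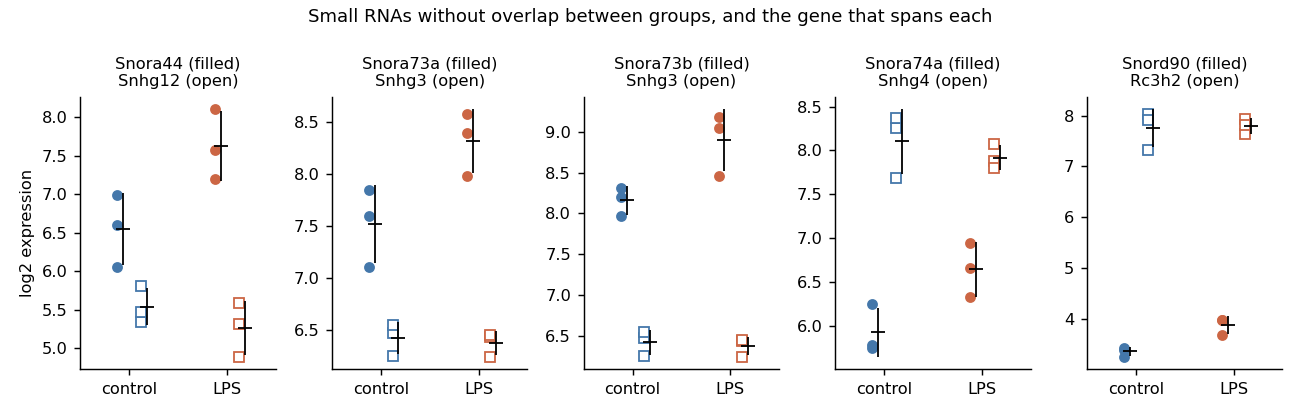
Log2 expression of the 5 small RNAs whose LPS values all lay above their controls (filled circles) and of the gene that spans each (open squares), by group. Points are arrays (controls blue, LPS orange), and bars are the mean ± SD of 3 arrays; the vertical scale differs between panels. Snora44 goes from 6.05 to 6.99 in controls to 7.20 to 8.11 after LPS, while Snhg12 overlaps.

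Genes of the machinery around snoRNAs showed no called change either. Of 7 core snoRNP proteins measured, 0 passed in limma and 0 had an unadjusted p under 0.05, with a median log2 fold change of -0.02, or -0.19 after quantile normalization and -0.18 without control replicate 2. The brightest were the H/ACA protein Nop10 at -0.25 and the C/D protein Nop56 at -0.01, and Nop58, named above as a host, also stood at -0.01. Of 13 assembly and Cajal body factors, with a median of 0.07 (-0.02 after quantile normalization), 0 passed, and 1 was higher at an unadjusted p under 0.05, the box C/D assembly factor Znhit6 (0.45, limma adjusted p = 0.64, named after its value was seen). The brightest of them, Nolc1 and Tgs1, had -0.12 and 0.25. Of 24 genes of RNA polymerase I and rRNA processing 0 passed and 1 had an unadjusted p under 0.05, Utp14a at 0.41 (limma adjusted p = 0.59, named after its value was seen). The list median was 0.12, or -0.05 after quantile normalization, and the brightest members Npm1 and Ncl had -0.16 and -0.04. Of 7 factors of nonsense-mediated decay, the pathway that removes many spliced host transcripts, 0 passed and 0 had an unadjusted p under 0.05. The brightest were Smg1 at 0.36 and Upf2 at 0.23, and the list median of 0.20 was 0.03 without LPS replicate 3 and 0.04 after quantile normalization. At an unadjusted p under 0.05, 4.98% of all rows and 9.29% of those above background were higher. Znhit6 and Utp14a, each 1 gene of its list, are therefore not read as changes.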

How the data were processed

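Per the submitters' processing notes, the authors used Affymetrix Expression Console to make the deposited log2 values per transcript cluster. Its version, background correction and normalization are not given in the sources used here, and the log2 scale was read from the values (0.84 to 12.0). The number of arrays, 3 per group, limits precision. The comparison used limma 3.58.1 under R 4.3.3, with lmFit and eBayes, no intensity trend and no filter, and Benjamini-Hochberg adjustment over all 41345 rows. Fold changes are LPS over control. The fit was tested on simulated data, but the outcome is not reported here. How large a change the fit could miss is therefore left unstated.

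Members and lists were chosen with earlier results of these data known. Named members were, in each class, the 5 with the lowest p in each direction above background, the 3 with the highest means, and a preset set of 16 symbols, of which 11 had a row. List genes were represented by their brightest row, and the 2 brightest members were named. Further members were named after their values were seen: extremes, host neighbours and rows that disagree with a named row. Of the members the rule names, 1 is not reported here.

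RefSeq (GRCm38.p6) held all 102 members. A host was the only protein-coding or noncoding gene spanning the small RNA or, among several, the Snhg gene. Strand was not used, although the plan asked for it, since the gene table has none. Coordinates of array rows are not printed, since the labels name no build. Replicate numbers were not treated as pairs: deviations of same-numbered arrays from their group means correlated at 0.07, -0.26 and -0.22.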

Additional observations from a re-analysis of the deposited data

How the results depend on the processing

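No member was called under the alternatives run, except 1 C/D row (Snord83b, lower, -1.86) in a fit without both control replicate 2 and LPS replicate 3, which made 1 of 102 members called lower. In that fit 152 rows of the whole table were called higher and 67 lower, in place of 80 and 0. The number called higher was 132 with array weights, 7 with a replicate block, and between 15 and 76 with 1 array left out, and the number called lower was between 0 and 14 with 1 array left out. The cause of these differing counts was not tested, and the fits that left arrays out also held fewer of them. The replicate block changed no member's call. Class medians changed sign for C/D and H/ACA rows without LPS replicate 3, for C/D rows also with array weights (-0.06) and quantile normalization (-0.04), for host rows without control replicate 1 (0.03), and for C/D and Cajal body rows (-0.42 and -0.14) without both arrays. Of 642 values of named members over 15 alternatives, 65 had a changed sign, and 7 of these moved by over 1 SD, all with both arrays left out: Scarna17 (-0.40 and -0.48 on its rows), Snord22 (-0.019), Zfas1 (-0.22), Snord99 (-0.36), Snord35a (-0.74) and Snord61 (-0.31). Signal near background limits Snord90 and the 8 members below it.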

Other observations

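Short noncoding RNAs outside the snoRNA families were looked at after the snoRNA values had been seen. RefSeq classes gave 12 rows of spliceosomal, RNase P, Y and related RNAs. Their median difference between LPS replicate 3 and the other LPS replicates was 0.65, and LPS replicate 3 was the highest LPS array in 8 of 12. It was the highest LPS array in 38.4% of all rows and 48.5% of rows above background. Rpph1, the RNA of RNase P, which trims transfer RNA precursors, had 8.15, 7.37 and 7.94 in the controls and 7.54, 7.65 and 9.17 after LPS, an excess of 1.57 in LPS replicate 3. Rn7sk, the RNA that holds a transcription elongation factor inactive, had 11.15, 11.00 and 11.22 in the controls and 11.19, 11.27 and 11.24 after LPS on a row with a narrow range. Rnu3a (U3, a C/D snoRNA under another name that takes part in early rRNA processing) was highest in control replicate 2 (10.33) and LPS replicate 3 (10.23), with 9.13 and 8.62 in the other controls and 9.48 and 9.54 in the other LPS arrays.

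Another 30 rows were annotated to a small nucleolar or Cajal body RNA together with another gene, mostly its host, leaving out 16 rows of the Snord116 cluster. Against 38.4% of all rows and 48.5% of those above background, LPS replicate 3 was the highest LPS array in 25 of these 30. The median difference from the other LPS replicates was 0.68. Rows of ribosomal protein genes, 108 in all, had a median of -0.32 on the same measure, and LPS replicate 3 was the highest LPS array in 18 of them.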
